A study of Homo sapiens with 4 samples.

Results

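The genes described here are 10 components of Notch signalling: the receptors NOTCH1, NOTCH2 and NOTCH3, the ligands DLL1, DLL3, JAG1 and JAG2, and the transcription factors HES1, HES6 and HEY1. They were chosen by gene symbol, and all 10 were found among 19826 gene rows. Polyadenylated RNA was sequenced from a line that the labels name BE(2)C:MYCN-ORF, that is, the human neuroblastoma line BE(2)C with an added MYCN reading frame. All cells received an siRNA and a miRNA mimic and were harvested after 48 hours. The 4 groups, each 1 library, are called here the control library (control siRNA siCon and control mimic miRCon), the let-7a library (siCon and let-7a), the siMYCN library (siMYCN and miRCon) and the double-treated library (siMYCN and let-7a). Values are given in that order, without replicates, so a difference between any pair of libraries cannot be checked against replicate spread.

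Notch receptors are membrane proteins that are cut by gamma-secretase after binding a ligand on a neighbouring cell. The freed intracellular part enters the nucleus, joins the DNA-binding protein RBPJ and a MAML coactivator, and switches on HES and HEY genes. HES1 and HEY1 encode repressors of the bHLH family that hold back neuronal differentiation, while HES6, a divergent member, is known to oppose HES1 and to be induced as neurons form. DLL3 is an atypical ligand that does not activate Notch on neighbouring cells and is known from neuroendocrine tumours. In neuroblastoma, Notch signalling is known to be more active in the mesenchymal-like state than in the noradrenergic state.

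The mature let-7a sequence is shown with matches to its seed in NOTCH2, 1 of the 10 genes, and in GXYLT1. GXYLT1 is a pathway gene outside the 10, and it was not found by a search of all pathway genes. In the first line below, from RefSeq, the capitals mark the seed, bases 2 to 8. In the other lines, from GENCODE 29 on GRCh38, they mark the stretch that pairs with the start of let-7a in the 3' UTR of NOTCH2 (chr1:119911997-119912018, minus strand) and of GXYLT1 (chr12:42086806-42086827, minus strand). The GXYLT1 stretch pairs with the whole seed and has an A opposite base 1. The NOTCH2 stretch pairs with bases 2 to 7 and has an A opposite base 1, but does not pair with base 8. GXYLT1 adds xylose to the O-glucose of Notch repeats.
hsa-let-7a-5p: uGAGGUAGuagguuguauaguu
NOTCH2: atggcctggcagtgtTACCTCA
GXYLT1: tttaaacttgtcttCTACCTCA
Among the 10 genes, 1 (NOTCH2) had a site of either kind, or a match to the seed alone, in its longest 3' UTR, and the other 9 had 0. Of 8916 tested genes with a 3' UTR, 19.04% had one, and 4.42% had the kind shown for GXYLT1. The NOTCH2 match shown is in the transcript with the longest coding sequence, in a 3' UTR of 3753 bases. The longest NOTCH2 3' UTR belongs to a short coding form and holds a different match. The 3' UTRs of DLL3 and HES1 were short, at 468 and 499 bases, against a median of 1510 among tested genes. That of GXYLT1 was long, at 5941 bases, and also holds a match of the kind shown for NOTCH2, which is not printed. Outside the 10 genes, EGFL7 and AES were searched as well and had 0 matches.

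The HES1 promoter is shown because RBPJ acts on HES1 through it, and HES1 is the pathway's best-known target. RefSeq promoters (GRCh38.p14, 250 bases before to 50 after the start) were found for 7 of the 10 genes. The HES1 window is chr3:194135898-194136197, plus strand, and capitals mark the RBPJ core TGGGAA, searched on both strands.
HES1: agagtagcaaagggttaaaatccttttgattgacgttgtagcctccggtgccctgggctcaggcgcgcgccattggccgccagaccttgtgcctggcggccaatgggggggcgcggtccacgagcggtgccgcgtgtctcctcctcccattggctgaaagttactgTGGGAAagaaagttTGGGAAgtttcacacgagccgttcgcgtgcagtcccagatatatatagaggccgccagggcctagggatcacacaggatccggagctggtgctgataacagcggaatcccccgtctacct
HES1 had 2 matches, which start 84 and 70 bases before the transcription start. The other 6 promoters had 0, HES6 among them. Of 35116 promoters, 24.03% had at least 1 match and 3.80% had at least 2. A match is a stretch of letters and was not measured as a binding site.

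The values summed to between 855811 and 862049 per library and were taken as TPM-like from these totals. Read depth is unknown. Comparisons of level between genes assume that the values are set per transcript length, as TPM values are. MYCN, the gene targeted by the siRNA, was at 1449, 1433, 1238 and 1197, so its siMYCN difference was -14.5% with miRCon and -16.4% with let-7a. This row can mix the introduced reading frame with the cells' own gene. Neuroblastoma markers were present in every library, with PHOX2A between 565.6 and 644.1 and HAND2 between 231.7 and 271.6. Of these 11 markers limma called 2 with siMYCN: GATA2 was higher (0.47 on the log2(value + 1) scale, adjusted p = 0.0488) and ISL1 lower (-0.68, adjusted p = 0.0434). Neither was called with no filter (adjusted p = 0.416 and 0.393) or with no trend (0.159 and 0.133), and GATA2 was not called with a pseudocount of 0.1 or 5 (adjusted p = 0.053 and 0.0537). The part of these markers in the Notch gene values was not tested. The summed level of 5 endothelial markers was 0.882 to 1.90, and that of 5 blood markers 3.01 to 3.40. For 6 fibroblast markers it was 155.1 to 202.3, of which LUM gave 83.9 to 123.3. COL1A1 was at 19.5 to 22.9, COL3A1 at 16.8 to 23.3 and DCN at 19.1 to 35.1. PDGFRA was at 3.11 to 4.25 and COL1A2 at 0.185 or less. Of the mesenchymal-like neuroblastoma markers, PRRX1 was at 0.080 or less and FN1 at 0.588 or less, while TWIST1 was between 246.2 and 342.7 and VIM between 158.2 and 198.4.

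Among the 10 genes, receptor RNA was low and the RNA of HES1, HES6 and HEY1 was not. The other HES and HEY genes were low too, with HES7 reaching the highest level of them, 3.91. In these bulk libraries, fewer expressing cells and less RNA per cell cannot be told apart. HEY1, HES6, HES1 and DLL3 together made up 95.6% to 97.1% of the summed level of the 10 genes in each library, and HEY1 ranked first in every library. The 3 receptors summed to 3.87, 3.45, 3.21 and 2.01. JAG2 and NOTCH3 took places 5 and 6 in either order, and JAG1, NOTCH1, NOTCH2 and DLL1 were each under 1 in every library. The order of HES6, HES1 and DLL3, places 2 to 4, changed between libraries, and without replicates these neighbours cannot be ranked.

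**Figure D1:**
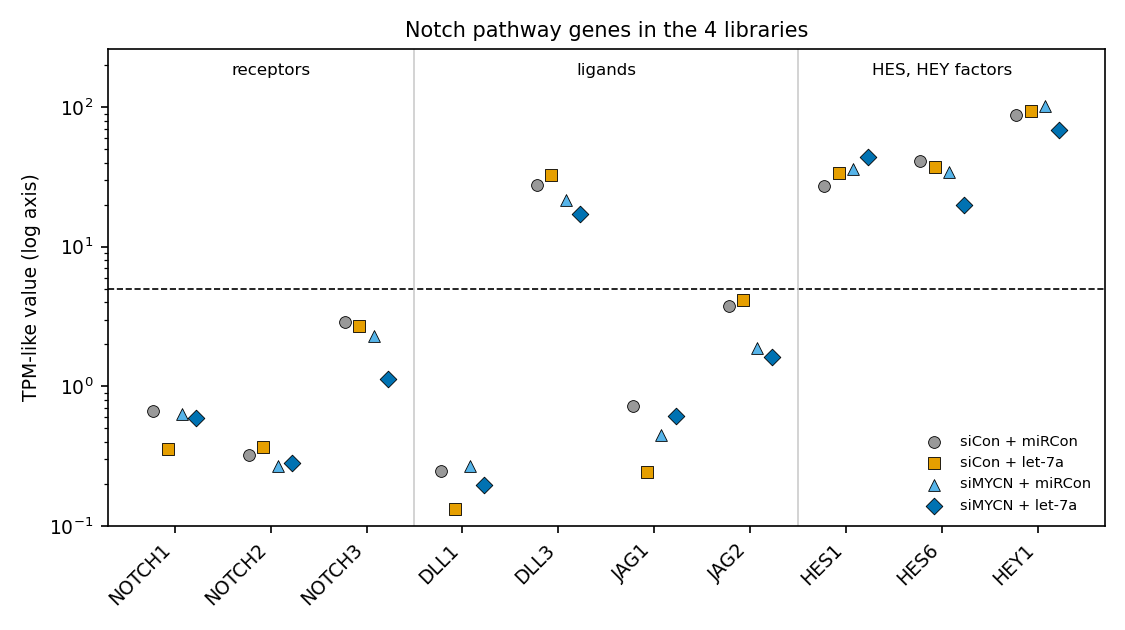
Level of each of the 10 genes in the 4 libraries, as TPM-like values on a log axis, 1 point per library. The dashed line is the expression filter, a mean of 5, which DLL3, HES1, HES6 and HEY1 passed.

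NOTCH3, a receptor linked to the mesenchymal-like state, was the highest of the receptors and made up 56.3% to 79.0% of their sum. Its level was 2.88 in the control library, 2.72 with let-7a, 2.31 with siMYCN and 1.13 with both. The double-treated library was the lowest, and both siMYCN-treated libraries were below both siCon libraries. NOTCH1 was at 0.669, 0.357, 0.637 and 0.595, lower in both let-7a-treated libraries, though by little in the siMYCN pair. NOTCH2 was at 0.321, 0.368, 0.270 and 0.283, lower in both siMYCN-treated libraries by small amounts. NOTCH2 has a near-identical partial copy, NOTCH2NL, at 0.0573 to 0.400, and reads can be divided between them. All 3 receptors were under the filter and were not tested.

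DLL3 was the main ligand RNA, at 85.5% to 89.3% of the summed level of the 4 ligands. Its level was 27.9 in the control library, 32.5 with let-7a, 21.7 with siMYCN and 17.3 with both. Both siMYCN-treated libraries were below both siCon libraries. JAG2, which activates Notch on neighbouring cells, was at 3.74, 4.17, 1.87 and 1.62 in the same order of libraries. The siMYCN-treated libraries were again the lower ones, with no overlap. JAG1, also an activating ligand, was at 0.724, 0.242, 0.451 and 0.615, with no order by either treatment. DLL1, the delta ligand that activates Notch, was at 0.247, 0.132, 0.269 and 0.195, lower in both let-7a-treated libraries. JAG2, JAG1 and DLL1 were under the filter.

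HES1 was at 27.4 in the control library, 33.8 with let-7a, 36.1 with siMYCN and 43.7 with both. It was lowest with neither treatment and highest with both. HES6 was at 41.4, 37.2, 34.4 and 19.8 in the same order, the reverse of HES1. The ratio of the HES6 level to the HES1 level was 1.51 with neither treatment, 1.10 with let-7a alone, 0.954 with siMYCN alone and 0.454 with both. HEY1 was at 87.5, 94.3, 101.7 and 68.8, so it was lower with both treatments and not with either one alone. HES6 overlaps an annotated transcript on the opposite strand, and strand use in counting is not given in the sources used here.

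HES1 lies at chr3:194136145-194138732 (plus strand), HES6 at chr2:238238267-238240662 (minus strand) and DLL3 at chr19:39498895-39508481 (plus strand) of GRCh38. In the levels above, HES1 was 1 of the genes whose siMYCN-treated libraries were both above the siCon libraries, which held for 35.6% of all 9324 tested genes. DLL3 and HES6 were 2 whose siMYCN-treated libraries were both below, which held for 21.1%. With 4 tested members, these counts can show little beside such shares. These shares do not cover genes under the filter, so the lower siMYCN-treated libraries of NOTCH2, NOTCH3 and JAG2 have no background. The like share for let-7a was not computed, so the lower let-7a-treated libraries of NOTCH1 and DLL1 have none either.

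The first question was what the let-7a mimic did to these genes. None (0) of the 4 tested members passed a Benjamini-Hochberg adjusted p of 0.05 in limma, in either direction, and 0% of all tested genes did in either direction. At an unadjusted p under 0.05, limma listed 2 of the 4 members, HES1 and HES6, against 7.48% of all genes. Differences were taken as log2(value + 1), so those of low genes come out too small. HES1 had a let-7a difference of 0.29 with siCon and 0.27 with siMYCN, and 0.28 ± 0.11 over both pairs (SE of the additive limma fit, 4 libraries, adjusted p = 0.663). HES6 had -0.15 and -0.77, and -0.46 ± 0.17 over both pairs (adjusted p = 0.663 by limma). The HES1 differences were alike in both siRNA states, whereas that of HES6 was larger with siMYCN.

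DLL3 and HEY1 had let-7a differences of opposite sign in the 2 siRNA states. DLL3 had 0.21 with siCon and -0.31 with siMYCN, and -0.049 ± 0.17 over both pairs (adjusted p = 0.944 by limma). HEY1 had 0.11 and -0.56, and -0.23 ± 0.17 over both pairs (adjusted p = 0.753 by limma). None (0) of the tested members was 1.5-fold or more higher in both pairs, or lower in both, and 0.204% of all tested genes were higher and 0.257% lower by that rule. The median of the 4 members over both pairs was -0.14, beside -0.031 for all tested genes. That median was 0.16 with siCon alone and -0.43 with siMYCN alone.

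The difference between the let-7a effects, with siMYCN minus with siCon, was -0.66 for HEY1, -0.62 for HES6, -0.52 for DLL3 and -0.022 for HES1. It reached 2-fold in 0 of the 4, against 2.39% of all tested genes. This difference is also the only measure of error that 4 single libraries allow, so it was not tested itself.

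The second question was what siMYCN did. None (0) of the 4 members was called by limma, while 2.07% of all tested genes were called higher and 1.36% lower (193 and 127 genes, or 343 and 408 after rescaling by median ratios). At an unadjusted p under 0.05, limma listed 3 of the 4 (DLL3, HES1 and HES6), against 26.4% of all genes. DLL3 had -0.35 with miRCon and -0.87 with let-7a, and -0.61 ± 0.17 over both pairs (95% interval of the fit -1.03 to -0.19, adjusted p = 0.0983 by limma). HES6 had -0.26 and -0.87, and -0.57 ± 0.17 over both pairs (95% interval -1.002 to -0.13, adjusted p = 0.122 by limma). HES1 had 0.38 and 0.36, and 0.37 ± 0.11 over both pairs (95% interval 0.10 to 0.64, adjusted p = 0.108 by limma). These intervals are not adjusted for the number of genes tested.

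HEY1 had a siMYCN difference of 0.22 with miRCon and -0.45 with let-7a, and -0.12 ± 0.17 over both pairs (adjusted p = 0.688 by limma). Likewise, 0 of the 4 reached 1.5-fold in a shared direction in the siMYCN pairs, a rule that 2.85% of all tested genes met as higher and 1.61% as lower. JAG2, not tested, had -0.72 and -0.98 and was past that fold in both pairs, and NOTCH3 had -0.23 and -0.81. The median of the 4 tested members was -0.34 over both pairs, beside 0.056 for all tested genes. Without mitochondrial transcripts in the totals, these medians were -0.40 and 0.0003. In the values as deposited, the median of the members was -0.021 with miRCon alone and -0.66 with let-7a alone.

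**Figure D2:**
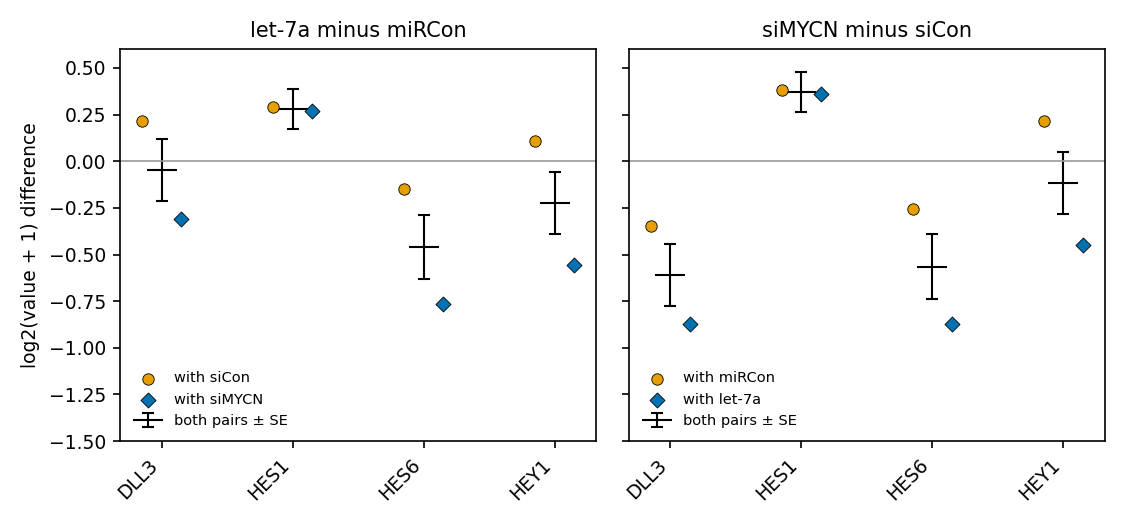
Differences on the log2(value + 1) scale for the 4 tested members, for let-7a (left) and siMYCN (right). Circles and diamonds are the 2 pairs of libraries, and bars are the mean of both pairs ± SE of the limma fit. HES1 is above 0 in all pairs, and HES6 is below 0 in all pairs.

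The double-treated library was then set against the control library, a single pair with no test. HES1 was higher by 0.65 on the log2(value + 1) scale, and HES6 had -1.02, DLL3 -0.66 and HEY1 -0.34. By the 1.5-fold rule, 1 member (HES1) was higher, as were 7.5% of tested genes, and 2 (HES6 and DLL3) were lower, as were 5.97%. In levels, HES1 was 59.4% higher, and the differences were -52.0% for HES6, -38.0% for DLL3, -60.8% for NOTCH3 and -56.7% for JAG2. In the same library the neuroblastoma markers summed to 5748, against 3337 to 3856 in the others, of which CHGB, a secretory granule protein, gave 2275. The part of that shift in the Notch gene values was not tested.

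Of 78 other Notch pathway genes, 50 were tested. With siMYCN, limma called 2 of the 50 higher and 0 lower, and with let-7a it called 0. Among all tested genes the siMYCN shares were 2.07% and 1.36%, as given above. Their siMYCN median was 0.10, beside 0.056 for all tested genes. In both siMYCN pairs 24 were above 0 and 12 below 0, against 43.2% and 27.4% of all tested genes, so these counts are near the background. EGFL7, a secreted protein that binds Notch, rose with siMYCN. It was at 31.0, 39.0, 67.7 and 83.0, with differences of 1.10 and 1.07 (1.09 ± 0.095 over both pairs, adjusted p = 0.0256 by limma). AES, a short Groucho-family protein that modulates the corepressors of HES factors, rose from 209.3 and 211.8 to 305.8 and 291.6 (0.50 ± 0.065 over both pairs, adjusted p = 0.0345 by limma). Neither was called when the filter was dropped (adjusted p = 0.369 for both) or when limma used no trend (0.129 for EGFL7 and 0.137 for AES).

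Among the other ligands, DLK1, an imprinted non-canonical ligand, had by far the highest level, at 2935, 3266, 3990 and 3628. Its siMYCN difference was 0.30 ± 0.075 (adjusted p = 0.0867 by limma). CNTN1, a contactin reported as a Notch ligand, had -0.44 ± 0.094 (adjusted p = 0.0654 by limma). It passed after both rescalings (adjusted p = 0.029 by limma with median ratios). It did not pass with no filter, a filter of 20, no trend or a pseudocount of 0.1 or 5. NOTCH4 was listed at 0 in every library, and DLL4 was at 0.186 or less.

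In the nuclear complex, RBPJ was at 19.0, 16.6, 30.6 and 38.2. Both siMYCN-treated libraries were higher, by 0.66 and 1.16 (0.91 ± 0.16 over both pairs, adjusted p = 0.0518 by limma). RBPJ passed at a mean of at least 20 (adjusted p = 0.0409 by limma) and after both rescalings (0.0286 by median ratios). It did not pass with no filter, with no trend or with a pseudocount of 0.1 or 5. Of its partners, MAML1 had -0.027 and the coactivator EP300 0.10 over both siMYCN pairs. None (0) of the 7 tested genes of this complex was called in either treatment.

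Among direct targets, NRARP, which promotes loss of the Notch intracellular part, was at 9.17, 8.40, 6.07 and 4.62 in the same order, with a siMYCN difference of -0.63 ± 0.20 (adjusted p = 0.128 by limma). HES1 and NRARP, both known Notch targets, thus had siMYCN differences of opposite sign. Of the other HES and HEY genes and their relatives, not all of them Notch targets, 4 (HES3, HES5, HEY2 and HELT) were listed at 0 in every library. BHLHE40, also a relative, was between 21.9 and 28.9 with a siMYCN difference of 0.16 (adjusted p = 0.435 by limma).

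In receptor processing, 6 of 8 tested genes were above 0 in both siMYCN pairs and 2 below 0, against 43.2% and 27.4% of all tested genes. Their median was 0.23, beside 0.056 for all tested genes, and limma called 0. With 8 genes, such counts can show little beside these shares. ADAM10, which cuts the receptor before gamma-secretase, had 0.44 (adjusted p = 0.0784 by limma), and APH1A, a gamma-secretase subunit, had 0.25 (adjusted p = 0.158 by limma). Of 6 tested glycosylation genes, 0 were called. XXYLT1, which extends the xylose that GXYLT1 adds, had a siMYCN difference of 0.55 (adjusted p = 0.0598 by limma). GXYLT1, with 1 of its let-7a matches shown above, was at 25.8, 18.9, 19.0 and 12.4. Its let-7a differences were -0.43 and -0.57 (adjusted p = 0.663 by limma over both pairs). A link between its matches and these values was not tested.

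Of 8 tested genes of ubiquitination and trafficking, 0 were called. The ligand-directed E3 ligases differed in sign with siMYCN, at -0.85 for NEURL1 (adjusted p = 0.0827 by limma) and 0.44 for MIB1 (adjusted p = 0.11 by limma). Among 15 tested corepressors, AES was the 1 that was called. The deacetylase HDAC1 had -0.40 (adjusted p = 0.0615 by limma) and its relative HDAC2 0.21 (adjusted p = 0.12 by limma).

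**Figure D3:**
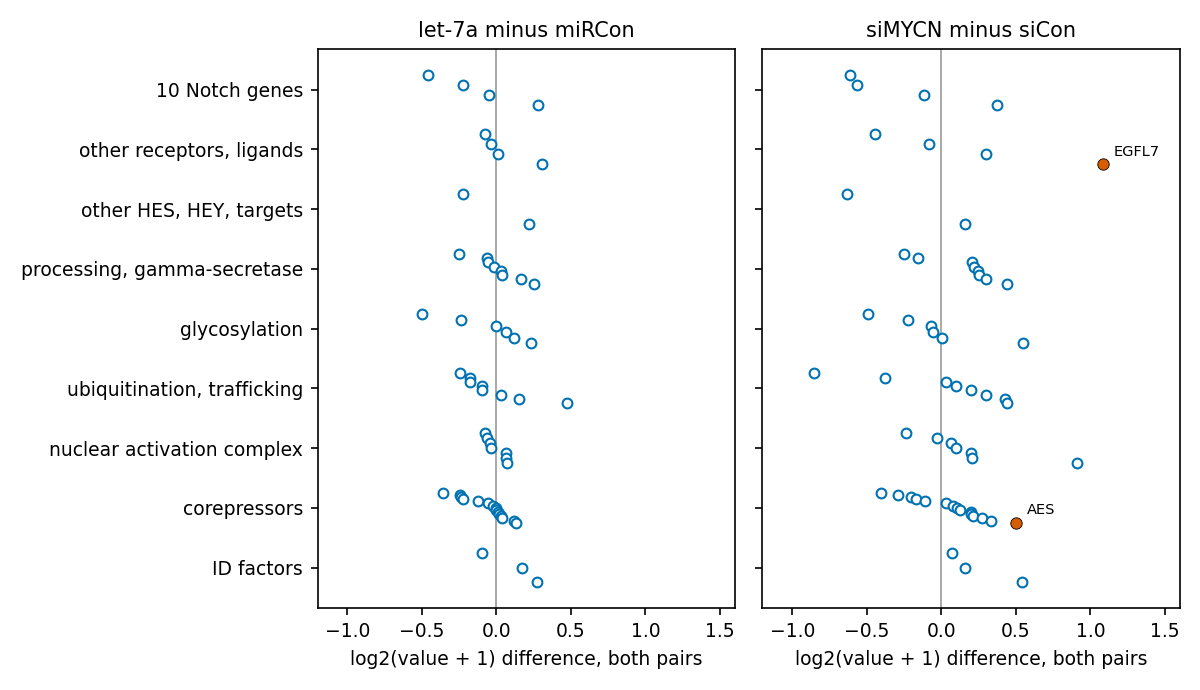
Differences on the log2(value + 1) scale over both pairs for let-7a (left) and siMYCN (right), 1 point per tested gene, by pathway role. Filled points passed an adjusted p of 0.05 in limma: with siMYCN these are EGFL7 and AES, and with let-7a there are none (0).

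The genes most like each tested member were the 2 with the smallest distance over the 3 log2 differences from the control library. They were ANKRD10 (distance 0.034) and SORCS1 (0.050) for HES1, SMIM19 (0.083) and PLGRKT (0.11) for DLL3, SNRNP27 (0.11) and OSBPL5 (0.13) for HES6, and MRE11A (0.058) and TCF7L1 (0.060) for HEY1. ANKRD10, for example, was at 52.8, 65.2, 68.7 and 81.7. With 4 libraries, such likeness describes these values only.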

How the data were processed

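RNA was measured in 4 libraries, 1 per group. The deposited table held 19837 rows of natural log values. Taken as natural logs, library totals were 855811 to 862049, nearly equal and of the size of TPM totals, and as base 2 they would be 143211 to 147588. The submitters' processing notes name HISAT 0.1.6, Salmon 0.3.2 and GRCh38 without saying what each was used for. How the authors annotated, filtered or logged the values is not given in the sources used here. Depth cannot be read from such values, and counting error is unknown.

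After 11 vector rows were set apart, 19826 gene rows remained. Genes with a mean of at least 5 (9324) were fitted with limma 3.58.1 in R 4.3.3 on log2(value + 1), using a trend and additive terms for siRNA and mimic. The fit has 1 residual degree of freedom, the departure from additivity, and 4.3 prior degrees of freedom. P-values were adjusted over all tested genes by Benjamini-Hochberg, and the test was tested on simulated data. The members and lists were chosen with earlier results of these data known. Named genes were the members, called genes and up to 3 of the highest in each list, and the 2 nearest genes per member; others, such as RBPJ, CNTN1, NEURL1, XXYLT1 and HDAC1, were named after their values were seen, and some genes that the rule names are not reported here. 3' UTRs were the longest per gene in GENCODE 29. The alternatives tried were other pseudocounts (0.1 and 5), no filter or a filter of 20, 2 rescalings (median ratios, and equal totals without mitochondrial transcripts), no trend, other fold sizes and single pairs. Python 3.11.15 was used.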

Additional observations from a re-analysis of the deposited data

Results flagged for a closer look

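Some genes had differences of opposite sign in the pairs of libraries that repeat a treatment. There were 7 such cases in 5 genes, and none of these differences was tested, since each pair is 2 single libraries. In both siMYCN pairs, 43.2% of all tested genes were above 0 and 27.4% below 0, and the remainder did not keep 1 sign. The like share for let-7a was not computed. For let-7a, the difference with siMYCN minus that with siCon was -0.66 for HEY1, -0.52 for DLL3, -0.26 for JAG2 and 0.63 for JAG1. For siMYCN, the difference with let-7a minus that with miRCon was -0.66 for HEY1, 0.63 for JAG1 and 0.26 for NOTCH1. The HEY1 and JAG1 values repeat because both subtractions give the same quantity. JAG1, JAG2 and NOTCH1 had levels under 5 in every library.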

How the results depend on the processing

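With 1 library per group, error comes from the departure from additivity, and read depth is unknown. No paired analysis was possible because the labels give no replicate numbers to use as a block; the additive fit takes each treatment over the 2 pairs of libraries that share the other one. None (0) of the members was called by limma under any alternative run, for let-7a or siMYCN. Limma called 193 genes higher and 127 lower with siMYCN; it called 0 and 0 with no filter (2452 at an unadjusted p under 0.05) and without a trend (2221), 310 and 196 at a mean of at least 20, and 343 and 408 after rescaling by median ratios. Without mitochondrial transcripts in the totals it called 203 and 263. These transcripts made up 31.7% of the control library and 32.1% of the let-7a library. They made up 28.4% of the siMYCN library and 29.3% of the double-treated library. Shares of genes above or below 0 were computed on the values as deposited only.

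Members past 1.5-fold in both siMYCN pairs numbered 0, against 1 with no filter (JAG2) and 2 at the smaller fold tried. With both treatments against neither, 3 were past 1.5-fold, against 5 with no filter and 1 at 2-fold. Differences between the let-7a effects reached 2-fold in 0 and 1.5-fold in 2. Shares of all genes were not computed for the other fold sizes or with no filter, so those counts have no background. The let-7a median of -0.14 was 0.16 in the siCon pair and -0.43 in the siMYCN pair. The siMYCN median of -0.34 was -0.096 with no filter, -0.021 with miRCon and -0.66 with let-7a. The cause of these shifts was not tested, beyond the 6 added members where no filter was used. Of the single-gene values, 188 kept their direction and side of the threshold, 10 lost a call, 15 gained one and 0 reversed.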

Other observations

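ID proteins lack a DNA-binding region and take partners away from other bHLH factors. Of 4 ID genes, 3 were tested, and limma called 0 in either treatment. ID1 was at 36.1 in the control library, 40.1 with let-7a, 48.5 with siMYCN and 64.2 with both. This is the same order of libraries as HES1. ID1 had a siMYCN difference of 0.54 ± 0.11 on the log2(value + 1) scale (adjusted p = 0.0634 by limma). It passed at a mean of at least 20 (adjusted p = 0.0474 by limma) and under none of the other settings. In both siMYCN pairs the 3 tested ID genes were above 0, as were 43.2% of all tested genes, and ID2 had only 0.073 over both pairs. ID3 was between 119.0 and 143.4, with a siMYCN difference of 0.16 (adjusted p = 0.30 by limma).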
